A study of Mus musculus with 6 samples.

Results

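Noct encodes Nocturnin, a rhythmically expressed enzyme related to the CCR4 deadenylases. The small RNAs described here are all reads of 24 to 32 nt that matched either strand of its longest annotated transcript, Noct-202, without a mismatch. They comprised 20000 distinct sequences, 10963 sense and 9037 antisense, of 10352368 distinct sequences of that length in the series and of 2164648 that matched the longest transcript of any of 55450 genes. Noct was chosen because earlier results of these data showed many reads on both of its strands, so its levels and strand shares are given as a description and not as a test.

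Small RNA was sequenced from whole testis of C57BL/6 mice, from the 18 to 35 nt fraction of total RNA. The libraries came from Dnmt3L KO and littermate WT at 16.5 dpc (days post coitum), Dnmt3L KO and littermate WT at 10 dpp (days post partum), and Miwi2 KO and littermate WT at 10 dpp. Each of the 6 groups was 1 library from pooled animals, 7 or 8 mice at 16.5 dpc and 3 mice at 10 dpp, so no spread between animals can be estimated. The labels name the mutants only by gene and do not describe the alleles.

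piRNAs are small RNAs of germ cells that bind PIWI proteins and mostly start with U. In the ping-pong cycle a PIWI protein cuts a target opposite position 10 of its guide, so the new piRNA overlaps the guide by 10 nt at the 5′ ends and carries A at its own position 10. MIWI2 is the nuclear PIWI protein of fetal mouse germ cells and guides DNA methylation to retrotransposons, and DNMT3L is the cofactor of the DNA methyltransferases that carry it out.

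Noct-202 lies on the plus strand of chr3:51240206-51251624 (GRCm38) and has 2 exons, of 7869 and 1928 nt, 9797 nt in all. Nearly all of its reads came from a stretch of 5096 nt at its start, chr3:51240206-51245301. This stretch begins and ends with the same 181 nt in the same direction, 4915 nt apart. Such a pair of terminal repeats is the layout of an LTR retrotransposon. Its repeat family was not determined here. It is called the repeat-flanked stretch below. The next 2503 nt, chr3:51245302-51247804, are the rest of the first exon upstream of the exons of the shorter transcript Noct-201. The last 2198 nt, chr3:51247805-51251624, are exonic in both transcripts and hold the coding part of 1098 nt and the 3′ UTR of 1092 nt. The 3 parts were drawn after the reads had been seen along the transcript.

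The sequences that carry the results are shown first, as they stand in the files, which write T for U. The first set gives single reads with their first base in capitals. They are the most abundant reads of 2 of the 5 leading sense 5′ ends and of 3 of the 5 leading antisense 5′ ends, chosen after their values were seen. Leading 5′ ends here and below are those with the highest mean level over the 6 libraries. Of the others, the reads at 4778 and 3601 stand in the second set.
sense hot spot at position 820, chr3:51241025-51241051, plus strand: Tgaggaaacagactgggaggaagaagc
sense hot spot at position 3262, chr3:51243467-51243494, plus strand: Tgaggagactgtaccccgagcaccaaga
antisense hot spot at position 4743, chr3:51244919-51244948, minus strand: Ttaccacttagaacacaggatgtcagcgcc
antisense hot spot at position 1043, chr3:51241221-51241248, minus strand: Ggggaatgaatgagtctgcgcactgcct
antisense hot spot at position 6470, chr3:51246650-51246675, minus strand: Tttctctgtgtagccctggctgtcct

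The second set gives pairs of reads whose 5′ ends overlap by exactly 10 nt on opposite strands. Capitals mark the 10 overlapping bases, which are the reverse complement of each other within a pair.
pair 1, sense, position 1937, chr3:51242142-51242168, plus strand: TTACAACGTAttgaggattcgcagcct
pair 1, antisense, position 1946, chr3:51242122-51242151, minus strand: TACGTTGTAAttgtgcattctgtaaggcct
pair 2, sense, position 3592, chr3:51243797-51243822, plus strand: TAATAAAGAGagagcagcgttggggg
pair 2, antisense, position 3601, chr3:51243777-51243806, minus strand: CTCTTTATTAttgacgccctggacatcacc
pair 3, sense, position 4778, chr3:51244983-51245008, plus strand: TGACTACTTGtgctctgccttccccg
pair 3, antisense, position 4787, chr3:51244966-51244992, minus strand: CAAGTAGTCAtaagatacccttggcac

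The third set gives reads found in no other gene, with the first base in capitals, because they bear on whether the reads can be told from other copies of the sequence. Both sense reads are of rank 2 among the unique sense reads of their part, and the antisense read is of rank 1. The sense reads of rank 1 are described below.
unique sense read at position 931, chr3:51241136-51241161, plus strand: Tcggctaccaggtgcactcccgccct
unique antisense read at position 874, chr3:51241050-51241079, minus strand: Tgaccgattagctggctggtaatgggctgc
unique sense read at position 6115, in the rest of the first exon, chr3:51246320-51246346, plus strand: Tatcgtgtggattctgaggatcagact

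Sense reads were most abundant in the Miwi2 KO and antisense reads in fetal testis. Sense levels, as reads per 1e6 reads of the library (RPM), were 3780.4 in the Dnmt3L KO and 5081 in its WT at 16.5 dpc, 1266 in the Dnmt3L KO and 917 in its WT at 10 dpp, and 10770.5 in the Miwi2 KO and 1550.2 in its WT. The Miwi2 KO library stood above the 5 others. Antisense levels were 3279.8 RPM in the Dnmt3L KO and 2667 in its WT at 16.5 dpc, 153 in the Dnmt3L KO and 519 in its WT at 10 dpp, and 1452 in the Miwi2 KO and 833 in its WT. Both fetal libraries were above all 4 libraries of 10 dpp, and the Dnmt3L KO of 10 dpp was lowest. In whole testis, fewer cells of a type and less RNA per cell cannot be told apart.

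**Figure D1:**
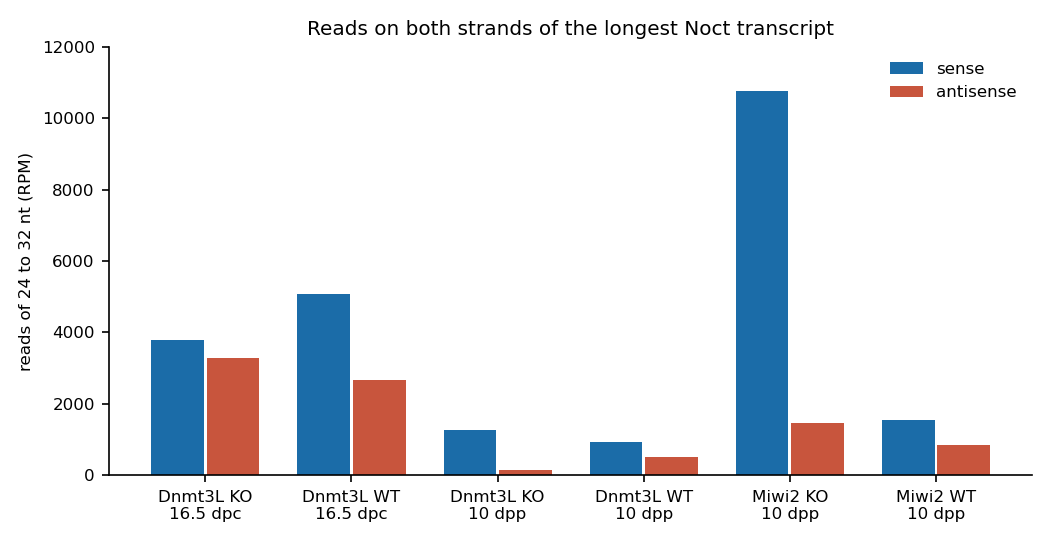
RPM (vertical axis) of sense (blue) and antisense (red) reads of 24 to 32 nt on the longest Noct transcript in the 6 libraries, 1 library per bar and no error bar because there is 1 pool per group. The sense bar of the Miwi2 KO reaches 10770.5 RPM against 1550.2 RPM in its WT, while antisense reads were 1452 and 833 RPM.

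These reads rest on 4381 to 400862 counts per strand and library, of totals between 28701563 and 47232494 reads. A count of 3 corresponds to 0.0635 to 0.105 RPM. Reads of 24 to 32 nt were 45.9% and 42.2% of the Dnmt3L KO and WT libraries of 16.5 dpc, 13.9% and 19.7% of those of 10 dpp, and 28.2% and 28.03% of the Miwi2 KO and WT libraries. Noct reads of both strands together were 1.54% and 1.84% of the reads of that length in the Dnmt3L KO and WT of 16.5 dpc, 1.02% and 0.729% in those of 10 dpp, and 4.34% and 0.850% in the Miwi2 KO and WT. The tissue label was checked against miRNA genes, scaled to 1e6 miRNA reads. The sum over 13 miRNAs of testis germ cells lay between 12694 and 79092, that of Mir202 of Sertoli cells between 118 and 812, and that of 4 mesenchymal miRNAs between 21677 and 46835. Blood miRNAs, a list of 3, summed to 191 to 256, and the 4 annotated miRNAs of other tissues to 37.2 to 341, of which Mir133a-1 gave nearly everything. Mir133a-1 is a muscle miRNA and reached 337 in the Miwi2 KO. The liver miRNA Mir122 reached 17.0 in the Miwi2 WT. The heart miRNA Mir208a and the other muscle miRNA, Mir1a-1, stayed at or below 0.880.

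With 1 library per group, a ratio between libraries was read against the spread between both WT libraries of 10 dpp. The size limit was the 95th percentile of the absolute log2 ratio between them over transcripts with at least 500 reads on the strand, 2.24 for sense and 2.32 for antisense reads. These libraries also differ in the longest read they hold, 50 nt in the Miwi2 WT and 100 nt in the Dnmt3L WT, and their median log2 ratio, Miwi2 WT over Dnmt3L WT, was 0.82 for sense and 0.89 for antisense reads. The limit includes this difference, whose part in it was not tested. For Noct itself, the Miwi2 WT over the Dnmt3L WT of 10 dpp gave 1.69-fold for sense and 1.60-fold for antisense reads. The 95% intervals below are exact conditional binomial intervals of the counts and cover the error of counting alone and no amplification bias, since the reads have no molecular identifiers.

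Loss of Miwi2 went with more sense reads of Noct, past the size limit, and with a smaller difference on the antisense strand. The sense ratio of the Miwi2 KO over its WT was 6.95-fold (95% interval 6.89 to 7.00), a log2 ratio of 2.80. Of 5849 transcripts compared, 3.74% were higher and 0.0342% lower past the limit, and the median log2 ratio was -0.40. The antisense ratio was 1.74-fold (95% interval 1.72 to 1.77), a log2 ratio of 0.80 within the limit. Of 4007 transcripts, 4.04% were higher and 0.025% lower past it, and the median was -0.38. This antisense ratio mixes parts that differed in direction, with 2.29-fold in the repeat-flanked stretch and 0.576-fold in the rest of the first exon. The sense ratio was no longer past the limit when reads were scaled to miRNA reads, with a log2 ratio of 2.83 against a limit of 2.92. The germ cell miRNAs summed to 79092 in the Miwi2 KO and 39801 in its WT, and their part in the result was not tested. Mir871 and Mir470 made most of both sums. Mir34c, Mir449a, Mir294 and Mir295 were lower in the KO than in its WT, and the other members were higher.

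In the Dnmt3L mutant of 10 dpp the sense reads of Noct were near the WT level, while most transcripts had far fewer reads than in the WT. Sense reads of the KO over the WT were at 1.38-fold (95% interval 1.36 to 1.40), a log2 ratio of 0.47. The median over 3924 transcripts was -2.93, with 70% lower and 0.153% higher past the limit, and Noct stood at percentile 97.04 of these ratios. Antisense reads were at 0.294-fold (95% interval 0.285 to 0.304), a log2 ratio of -1.77 within the limit. Their median over 2918 transcripts was -2.99, with 72.4% lower and 0.274% higher past the limit, and Noct stood at percentile 82.5. By part, the antisense ratio was 0.385-fold in the repeat-flanked stretch and 0.144-fold in the rest of the first exon. With scaling by trimmed means (TMM), with a factor of 0.181 for this KO and 1.09 for its WT, the sense log2 ratio was 3.05, past that setting's limit of 1.85, and the antisense log2 ratio was 0.82, within its limit of 1.66. The germ cell miRNAs summed to 14868 in this KO and 53359 in its WT, and their part in the result was not tested. Mir871 and Mir470 again made most of both sums. Mir34c and Mir449a were higher in the KO than in its WT, and the other members were lower.

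At 16.5 dpc both strands differed less between Dnmt3L KO and WT than both WT libraries of 10 dpp did over transcripts. Sense reads were at 0.744-fold (95% interval 0.739 to 0.749), a log2 ratio of -0.43 beside a median of -0.06 over 5691 transcripts, of which 0.193% were higher and 0.0351% lower past the limit. Antisense reads were at 1.23-fold (95% interval 1.22 to 1.24), a log2 ratio of 0.30 beside a median of -0.04 over 4528 transcripts, of which 0.0663% were higher and 0.177% lower past it.

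In WT testis Noct reads of the whole transcript were fewer at 10 dpp than at 16.5 dpc on both strands. The Dnmt3L WT of 10 dpp over that of 16.5 dpc gave 0.180-fold for sense reads (95% interval 0.178 to 0.182), a log2 ratio of -2.47 past the limit, as were 21% of 5523 transcripts in that direction, with 12% past it in the other. Antisense reads gave 0.195-fold (95% interval 0.192 to 0.198), a log2 ratio of -2.36 just past the limit of 2.32, as were 26.9% of 4221 transcripts, with 6.04% past it in the other direction. Scaled to reads of 24 to 32 nt, both were within the limit, at -1.37 for sense and -1.26 for antisense reads. Over distinct sequences the sense log2 ratio was 0.042, with its direction turned, and the antisense one -0.20, and the antisense call was also lost over unique reads, over U-first reads and with a count minimum of 100. The longest read was 100 nt in the 10 dpp library and 50 nt in that of 16.5 dpc, and the part of this difference in the result was not tested. By part, the repeat-flanked stretch was at 0.177-fold for sense and 0.128-fold for antisense reads. The rest of the first exon was at 0.738-fold for sense reads and higher, at 1.36-fold, for antisense reads. This comparison shares its 10 dpp library with the Dnmt3L comparison of that age and its 16.5 dpc library with the fetal one.

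Both mutants of 10 dpp had a lower share of antisense reads than their WT, and the fetal Dnmt3L mutant a higher one. The antisense share of Noct reads was 46.5% in the Dnmt3L KO (95% Clopper-Pearson interval 46.3 to 46.6) and 34.4% in its WT (34.3 to 34.6) at 16.5 dpc. At 10 dpp it was 10.8% in the Dnmt3L KO (10.5 to 11.1) and 36.2% in its WT (35.7 to 36.6), and 11.9% in the Miwi2 KO (11.8 to 11.97) and 35.0% in its WT (34.7 to 35.2). Thus, over all Noct reads, the 3 WT libraries lay between 34.4% and 36.2%, and the 10 dpp mutants below them. Over transcripts with at least 500 reads the median share was 37.3% in the Dnmt3L KO and 35.1% in its WT at 16.5 dpc, 29.4% in the KO and 28.2% in its WT at 10 dpp, and 28.98% in the Miwi2 KO and 27.0% in its WT. The low shares were also present within the repeat-flanked stretch, at 9.09% in the Dnmt3L KO and 26.5% in its WT of 10 dpp, and at 10.9% in the Miwi2 KO and 27.3% in its WT. At 16.5 dpc the share within the stretch was 45.8% in the Dnmt3L KO and 33.3% in its WT, so the WT libraries were less alike there.

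Along the transcript, the repeat-flanked stretch held 97.1% to 99.5% of sense reads in the 6 libraries. It held 96.6% and 94.6% of antisense reads in the Dnmt3L KO and WT of 16.5 dpc, 81.6% and 62.4% in those of 10 dpp, and 89.4% and 68.0% in the Miwi2 KO and WT. The hot spot at position 6470 had 51.9 of the 110.2 antisense RPM of the rest of the first exon in the fetal Dnmt3L KO and 78.4 of 143 RPM in its WT, and 17.9 of 28.1 RPM in the KO and 136 of 195 RPM in its WT at 10 dpp. It had 89.7 of 153 RPM in the Miwi2 KO and 162 of 266 RPM in its WT. Per kilobase of transcript, sense reads of the stretch were at 2089 RPM in the Miwi2 KO and 295 RPM in its WT. Those of the rest of the first exon were at 48.6 RPM per kb in the Miwi2 KO and 17.1 in its WT. The exons shared with Noct-201, which encode the protein, had at most 1.41 RPM per kb of sense reads, in the Miwi2 KO, and 0 to 8 antisense reads in a library. The whole of Noct-201, a transcript of 3059 nt, had 9 to 120 sense and 1 to 64 antisense reads per library.

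**Figure D2:**
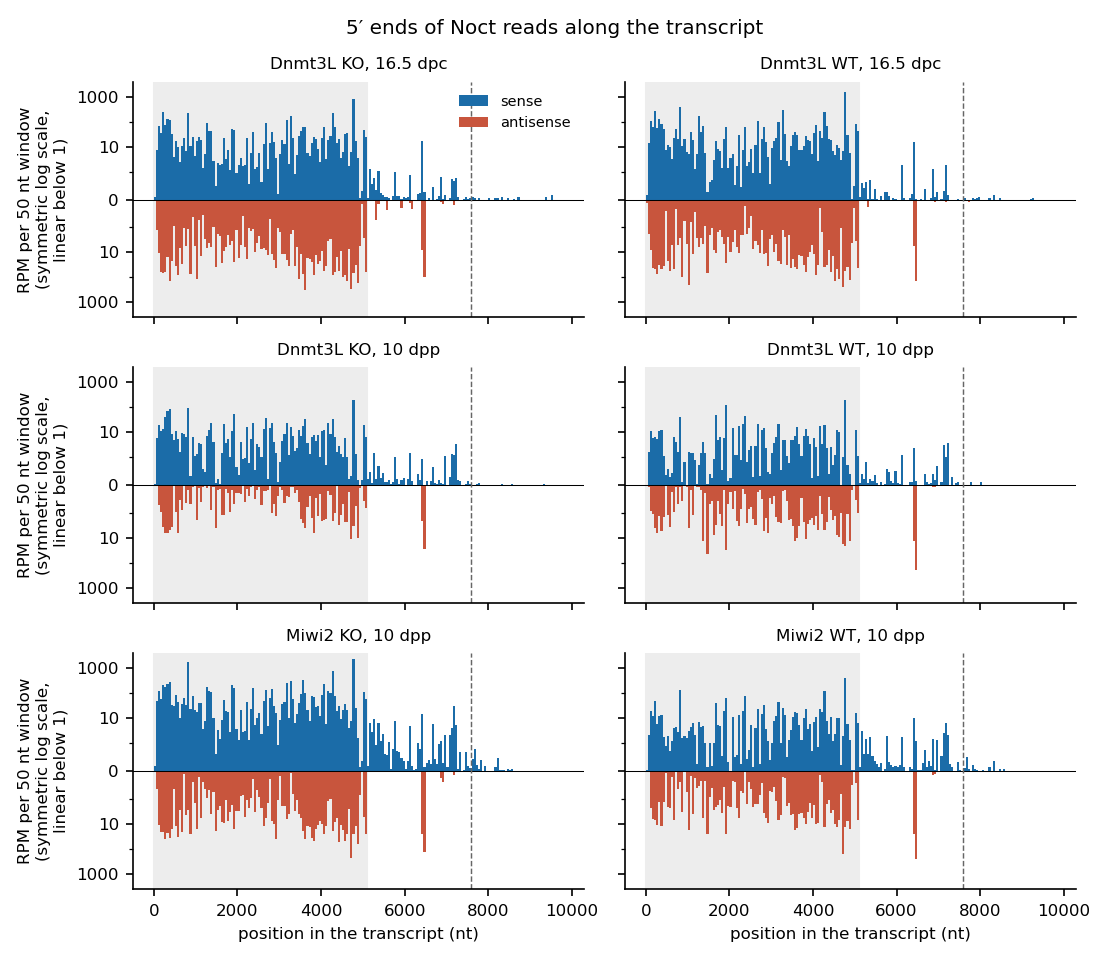
RPM of 5′ ends in windows of 50 nt (vertical axis, symmetric log scale that is linear below 1) against position in the Noct transcript (horizontal axis, nt), sense reads upward in blue and antisense reads downward in red, 1 panel per library. The grey band is the repeat-flanked stretch of 5096 nt, which held 97.1% to 99.5% of sense reads, and the dashed line is the start of the exons shared with Noct-201.

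Sense reads were concentrated in a few places. In each library, its own 5 windows of 50 nt with most sense reads, of 196, held 40.6% to 53.5% of sense reads. Its own 5 windows with most antisense reads held 31.7% to 57.0% of antisense reads. These windows were not the same in all libraries. The windows and 5′ ends named below are instead ranked by mean RPM over the 6 libraries. The leading sense window, positions 4751 to 4800 (chr3:51244956-51245005), had 836 RPM in the Dnmt3L KO and 1523 in its WT at 16.5 dpc, 203 in the KO and 195 in its WT at 10 dpp, and 2255 in the Miwi2 KO and 388 in its WT. It holds 3 of the 5 leading sense 5′ ends, at positions 4778, 4776 and 4775, whose most abundant reads are each found in 26 genes. The 5′ end at position 4778 was higher than that at position 820 in both fetal libraries and both WT of 10 dpp. Position 4778 had 567 RPM in the fetal WT, 49.4 in the Dnmt3L WT of 10 dpp and 131 in the Miwi2 WT. By mean RPM over the 6 libraries, the 5′ end at position 820 was the single leading one. It had 201.1 RPM in the Dnmt3L KO and 355 in its WT at 16.5 dpc, 86.7 in the KO and 35.2 in its WT at 10 dpp, and 1630.4 in the Miwi2 KO and 117 in its WT. Its read, found in 5 genes, alone made up 14.8% of the sense reads of the Miwi2 KO and 7.39% of those of its WT. The 5′ end at position 3262, whose read is found in 6 genes, had 100.4 RPM in the Dnmt3L KO and 180 in its WT at 16.5 dpc, 2.93 in the KO and 0.525 in its WT at 10 dpp, and 162 in the Miwi2 KO and 13.6 in its WT. The 3 lowest libraries there were the Dnmt3L KO and both WT of 10 dpp.

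Antisense hot spots differed in which libraries they filled. The leading one, at position 6470 outside the repeat-flanked stretch, had 51.9 RPM in the Dnmt3L KO and 78.4 in its WT at 16.5 dpc, 17.9 in the KO and 136 in its WT at 10 dpp, and 89.7 in the Miwi2 KO and 162 in its WT. Its leading read is found in 589 genes, so its origin at Noct cannot be told from the read, and it was lower in each KO than in its WT. Position 4743 had 86.8 RPM in the Dnmt3L KO and 67.2 in its WT at 16.5 dpc, 7.00 in the KO and 9.51 in its WT at 10 dpp, and 161 in the Miwi2 KO and 126 in its WT. The 5′ end at position 1043 was mainly fetal, with 85.5 RPM in the Dnmt3L KO and 136 in its WT at 16.5 dpc and 1.32 to 8.42 RPM in the 4 libraries of 10 dpp. Position 3601 was high in a single library, with 244 RPM in the Dnmt3L KO against 31.5 RPM in its WT at 16.5 dpc and 2.47 to 21.2 RPM at 10 dpp.

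Sense reads had the length and first base usual of piRNAs. Their most frequent length was 27 nt in all libraries but the Dnmt3L KO of 10 dpp, where it was 26 nt. U at position 1 was found in 76.3% and 80.0% of sense reads of the Dnmt3L KO and WT of 16.5 dpc, 87.3% and 85.6% of those of 10 dpp, and 83.8% and 80.6% of those of the Miwi2 KO and WT. Over all reads of 24 to 32 nt that matched transcripts, this share was 69.9% to 82.8%. Sense reads of 29 to 32 nt made up 1.96% in the Dnmt3L KO and 11.9% in its WT at 10 dpp, 20.6% in the Miwi2 KO and 27.2% in its WT, and 25.7% and 23.4% in the Dnmt3L KO and WT at 16.5 dpc. Over all matched reads, those of 29 to 32 nt were 0.794% in the Dnmt3L KO and 5.23% in its WT at 10 dpp, against 20.4% to 24.9% in the 4 other libraries, so the short lengths of these Dnmt3L libraries are not limited to Noct.

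Antisense reads instead carried A at position 10 more often than sense reads did. A at position 10 was found in 64.7% and 60.3% of antisense reads of the Dnmt3L KO and WT of 16.5 dpc, 62.9% and 48.6% of those of 10 dpp, and 70.6% and 56.7% of those of the Miwi2 KO and WT. In sense reads it was at 29.7% in the Dnmt3L KO and 26.7% in its WT of 16.5 dpc, 26.0% in the KO and 40.2% in its WT of 10 dpp, and 31.2% in the Miwi2 KO and 37.4% in its WT. U at position 1 of antisense reads was at 50.4% in the Dnmt3L KO and 54.2% in its WT at 16.5 dpc, 56.0% in the KO and 71.9% in its WT at 10 dpp, and 51.2% in the Miwi2 KO and 73.3% in its WT. Within the repeat-flanked stretch, A at position 10 of antisense reads was at 71.6% in the Dnmt3L KO and 64.0% in its WT of 10 dpp, and at 75.1% in the Miwi2 KO and 68.1% in its WT. Lengths of 29 to 32 nt made up 39.5% of antisense reads in the Dnmt3L KO and 38.1% in its WT at 16.5 dpc, 3.86% in the KO and 17.6% in its WT at 10 dpp, and 37.9% in the Miwi2 KO and 36.9% in its WT.

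At the edges of the length limits, sense reads of 24 nt had 197 RPM and of 23 nt 242 RPM in the Miwi2 KO, against 36.9 and 35.8 RPM in its WT. At the upper edge, sense reads of 32 nt had 288 RPM and of 33 nt 100.004 RPM in the Miwi2 KO, against 45.5 and 15.9 RPM in its WT. The limit at 24 nt leaves the main sense peak inside. On the antisense strand of the 4 libraries of 10 dpp the most frequent length of 18 to 35 nt was 22 nt, outside the range described here, with 679 RPM in the Miwi2 KO and 370 in its WT, and 81.6 in the Dnmt3L KO and 210.3 in its WT. The rest of the first exon held 48.0% of antisense reads of 18 to 23 nt in the Miwi2 KO and 89.9% in its WT. It held 31.7% of them in the Dnmt3L KO of 10 dpp and 81.1% in its WT. These shorter reads were not searched in other genes, so their origin at Noct cannot be told.

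**Figure D3:**
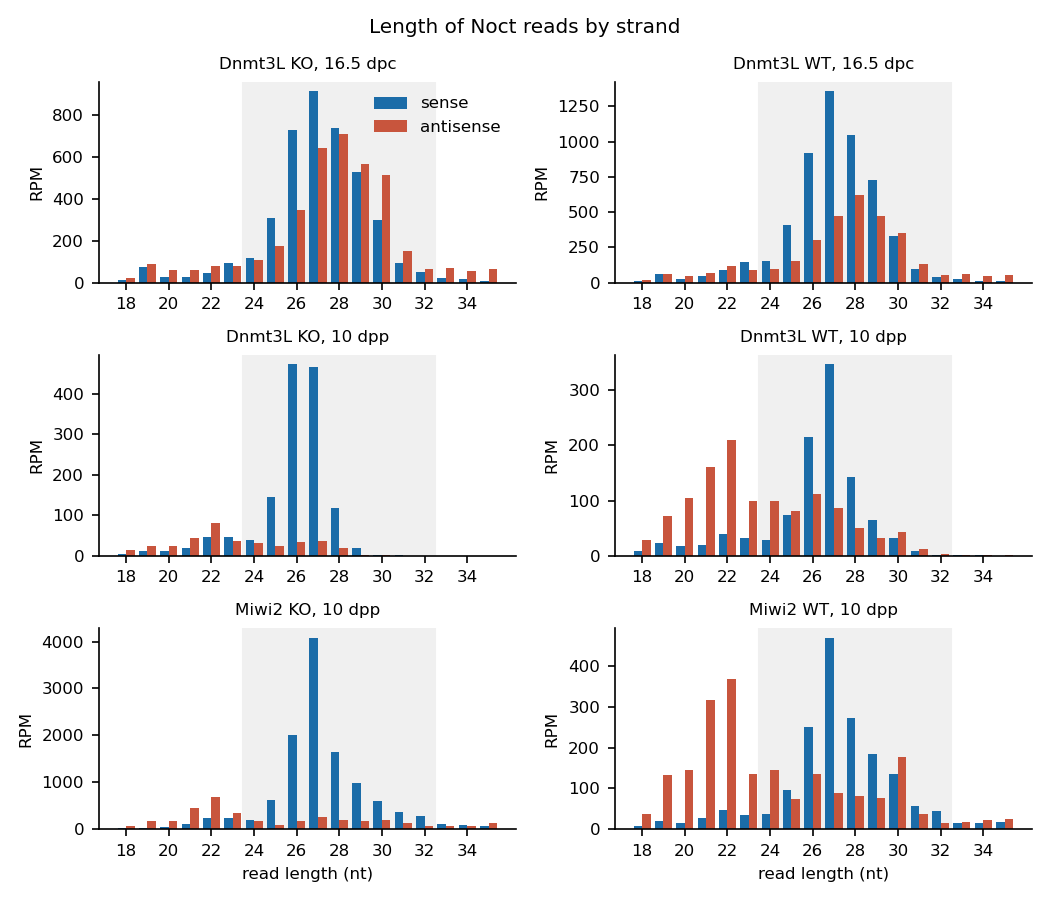
RPM (vertical axis, own scale in each panel) of Noct reads by read length (horizontal axis, 18 to 35 nt) on the sense (blue) and antisense (red) strand, 1 panel per library, with 24 to 32 nt in grey. Sense reads peak at 26 or 27 nt in each library, and antisense reads of 10 dpp peak at 22 nt, below the grey range, with 679 RPM in the Miwi2 KO and 370 RPM in its WT.

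An overlap of 10 nt was the most frequent 5′ overlap between strands in every library. Weighted by the product of counts, it made up 24.9% and 20.4% of overlaps of 1 to 20 nt in the Dnmt3L KO and WT of 16.5 dpc, 15.2% and 46.1% in those of 10 dpp, and 27.2% and 34.5% in the Miwi2 KO and WT. The z-score against the other overlaps was 14.8 in the Dnmt3L KO and 10.4 in its WT of 16.5 dpc, 3.25 in the KO and 11.4 in its WT of 10 dpp, and 8.85 in the Miwi2 KO and 9.66 in its WT. The 10 nt share was thus lowest in the Dnmt3L KO of 10 dpp, the library with the fewest antisense reads. Without the pair with the largest product it was 9.21% there, in rank 4, and 12 nt was most frequent. It was 19.5% in its WT, in rank 2, and stayed in rank 1 in the 4 others. Over unique reads alone, 10 nt was in rank 1 in the 3 KO libraries and the fetal WT, in rank 2 in the Dnmt3L WT of 10 dpp and in rank 3 in the Miwi2 WT. The share over unique reads was 28.8% in the Dnmt3L KO and 15.8% in its WT of 10 dpp, and 26.0% in the Miwi2 KO and 9.01% in its WT, an order turned round from that over all reads. These unique shares rest on few pairs of positions at 10 nt, 17 in the Dnmt3L KO and 6 in its WT, and 61 in the Miwi2 KO and 5 in its WT. Outside the repeat-flanked stretch 10 nt stood in rank 2 to 13 and was the most frequent overlap in no library. Of antisense reads, 74.0% and 68.1% had a sense partner at 10 nt in the Dnmt3L KO and WT of 16.5 dpc, 52.0% and 71.0% in those of 10 dpp, and 75.0% and 75.7% in the Miwi2 KO and WT. Partner shares at other overlaps are not given, so these values are not the part of reads made by ping-pong. Counted as pairs of positions whatever their reads, 10 nt made up 5.76% in the fetal Dnmt3L KO to 7.21% in the Dnmt3L WT of 10 dpp. It was in rank 1 in each library by that count too.

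**Figure D4:**
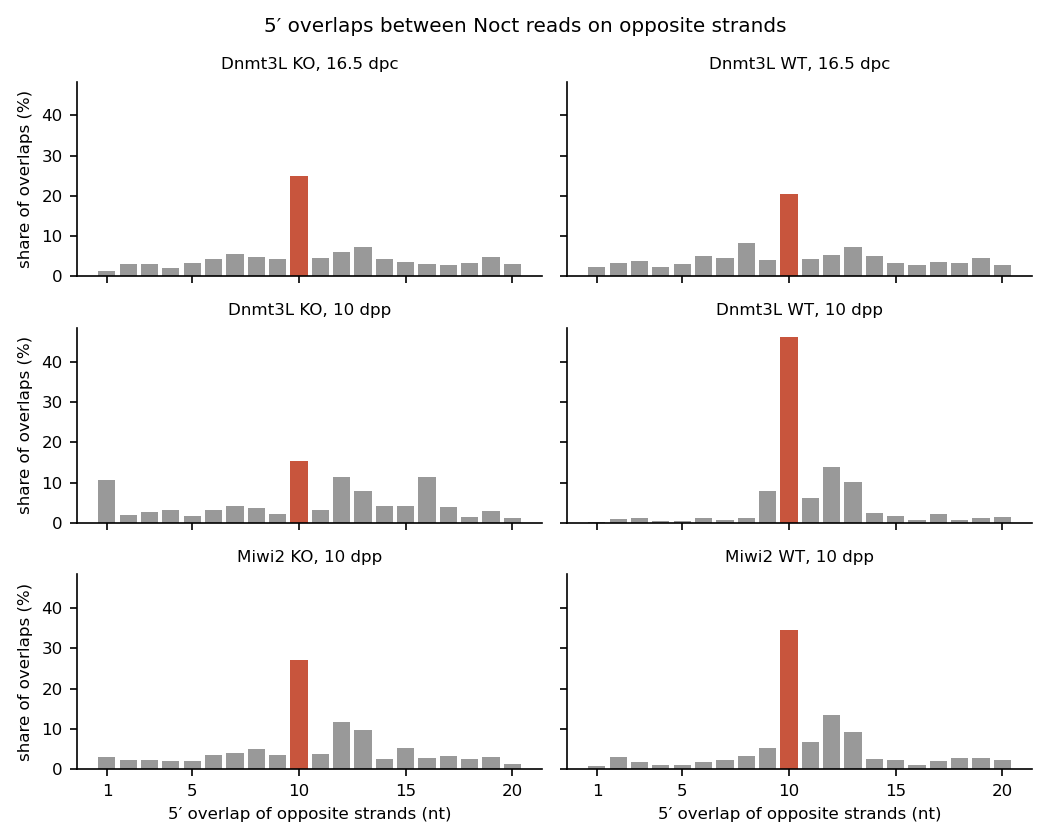
Share of 5′ overlaps (vertical axis, % of overlaps of 1 to 20 nt weighted by the product of counts) by overlap length (horizontal axis, nt) between Noct reads on opposite strands, 1 panel per library, with 10 nt in red. The 10 nt bar is the tallest in each panel, from 15.2% in the Dnmt3L KO to 46.1% in the Dnmt3L WT, both of 10 dpp.

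The printed pairs show how uneven the strands of such a pair can be. Pair 3, whose sense read starts within the leading window, had 261 RPM of sense 5′ ends and 21.2 RPM of antisense 5′ ends in the fetal Dnmt3L KO, and 567 and 10.5 RPM in its WT. In the Miwi2 KO it had 691 RPM sense and 15.5 RPM antisense, against 131 and 9.49 RPM in its WT. Pair 2 leaned to the antisense strand in the fetal Dnmt3L KO, with 35.3 RPM sense and 244 RPM antisense, and to the sense strand in the Miwi2 KO, with 210.5 and 21.2 RPM. Pair 1 had 36.8 RPM sense and 0.279 RPM antisense in the Dnmt3L KO of 10 dpp, against 106 and 26.4 RPM in its WT. In all 3 pairs the antisense read carries A at position 10, and only in pair 1 does the sense read carry it too.

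A read of Noct was mostly also a read of other genes. Reads found in the longest transcript of no other gene, called unique here, were 3.13% and 2.47% of sense reads in the Dnmt3L KO and WT of 16.5 dpc, 4.53% and 2.17% in those of 10 dpp, and 4.19% and 3.19% in the Miwi2 KO and WT. Unique antisense reads were 5.90% of antisense reads in the Dnmt3L KO and 6.47% in its WT of 16.5 dpc, 5.18% in the KO and 1.91% in its WT of 10 dpp, and 4.52% in the Miwi2 KO and 1.96% in its WT. Over all matched reads 41.8% to 68.3% were unique in this sense. Copies of the sequence outside annotated transcripts were not searched, so unique means only among transcripts. Counted by reads, the median sense read of the repeat-flanked stretch was found in 6 other genes and the median antisense read in 7, with at most 52. Antisense reads of the rest of the first exon were found in 594 other genes at the median, and 97.4% of them in more than 100.

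The genes that shared most reads with Noct were Gm42860 with 58.1% of Noct reads, Slc38a6 with 41.5%, Lrrc8d with 35.5%, B230220B15Rik with 34.7% and Gm47652 with 30.5%. Gm42860 held them in the same direction, and the other 4 in the opposite direction. For Gm42860 the Miwi2 KO over WT ratio was 5.81-fold for sense and 2.23-fold for antisense reads. In Slc38a6, which encodes a transporter, the strands were turned round, with 2.09-fold for sense and 5.47-fold for antisense reads. These values share most of their reads with those of Noct and are no separate measurement.

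Unique reads showed larger differences in the Miwi2 comparison than all reads did. Unique sense reads of the repeat-flanked stretch were at 108 RPM in the Dnmt3L KO and 116 in its WT at 16.5 dpc, 43.3 in the KO and 9.48 in its WT at 10 dpp, and 351 in the Miwi2 KO and 21.5 in its WT. This was 16.3-fold for the Miwi2 KO (95% interval 15.3 to 17.4) and 4.57-fold for the Dnmt3L KO of 10 dpp (4.06 to 5.15). Between both WT libraries, Miwi2 over Dnmt3L, it was 2.27-fold. Unique antisense reads of the stretch were at 188 RPM in the Dnmt3L KO and 170 in its WT at 16.5 dpc, 7.91 in the KO and 9.40 in its WT at 10 dpp, and 65.2 in the Miwi2 KO and 14.6 in its WT. The Miwi2 KO ratio was 4.46-fold (95% interval 4.09 to 4.87), and the Dnmt3L KO ratio at 10 dpp was 0.841-fold (0.709 to 0.996). Between both WT libraries, Miwi2 over Dnmt3L, the antisense ratio was 1.55-fold. Over the whole transcript, the unique log2 ratio of the Miwi2 KO was 2.01 for antisense reads, within that setting's limit of 4.45, which rests on 47 transcripts. For sense reads it was 3.19, past a limit of 2.08. The antisense share of unique reads of the stretch was 63.5% and 59.4% in the Dnmt3L KO and WT of 16.5 dpc, 15.4% and 49.8% in those of 10 dpp, and 15.7% and 40.5% in the Miwi2 KO and WT.

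The unique sense read at position 931 had 271 and 229 reads in the Dnmt3L KO and WT of 16.5 dpc, 59 and 5 in those of 10 dpp, and 516 and 15 in the Miwi2 KO and WT. The unique sense read of rank 1 in the stretch, at position 787, had 58 and 299 reads in the fetal Dnmt3L KO and WT. It had 135 and 26 in those of 10 dpp, and 666 and 30 in the Miwi2 KO and WT. The unique antisense read at position 874 had 668 and 912 reads in the fetal Dnmt3L KO and WT, 0 in both Dnmt3L libraries of 10 dpp, and 90 and 17 in the Miwi2 KO and WT. It was the leading unique antisense read of the stretch and mainly fetal.

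Outside the stretch, the rest of the first exon had unique sense reads in all libraries but few unique antisense reads. Unique sense reads there were at 9.84 RPM in the Dnmt3L KO and 8.85 in its WT at 16.5 dpc, 13.8 in the KO and 10.1 in its WT at 10 dpp, and 97.7 in the Miwi2 KO and 26.2 in its WT. The Miwi2 KO ratio was 3.72-fold (95% interval 3.49 to 3.98), beside 2.61-fold between the Miwi2 WT and the Dnmt3L WT of 10 dpp. Unique antisense reads numbered 285 and 119 in the Dnmt3L KO and WT of 16.5 dpc, 0 and 19 in those of 10 dpp, and 18 and 78 in the Miwi2 KO and WT. The 0 reads in the Dnmt3L KO of 10 dpp allow up to 0.105 RPM. The sense reads here were again mostly U-first, at 66.1% in the Miwi2 KO and 68.5% in its WT and 81.3% to 84.3% in the Dnmt3L libraries. The unique sense read at position 6115 had 13 and 15 reads in the Dnmt3L KO and WT of 16.5 dpc, 25 and 33 in those of 10 dpp, and 98 and 31 in the Miwi2 KO and WT. The unique sense read of rank 1 in this part, at position 7154, starts with C. It had 0 and 0 reads in the Dnmt3L KO and WT of 16.5 dpc, 0 and 1 in those of 10 dpp, and 311 and 67 in the Miwi2 KO and WT.

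**Figure D5:**
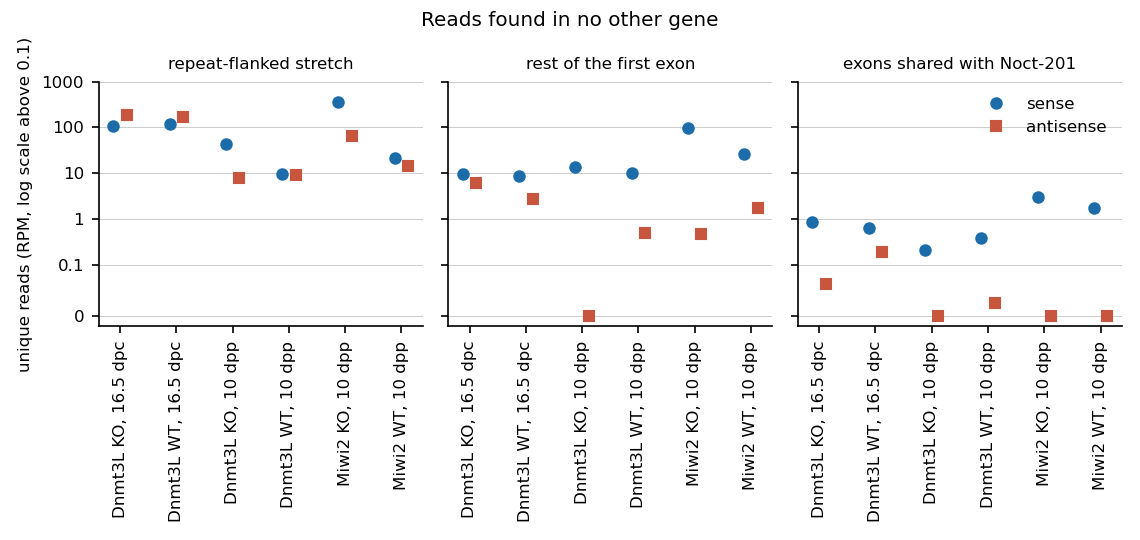
RPM of reads found in no other gene (vertical axis, log scale above 0.1 and linear below) in the 3 parts of the Noct transcript, for sense (blue circles) and antisense (red squares) reads in the 6 libraries, 1 point per library. In the repeat-flanked stretch unique sense reads were 351 RPM in the Miwi2 KO and 21.5 RPM in its WT, and in the exons shared with Noct-201 they stayed at or below 3.09 RPM.

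Noct differed in strand from Tmem38b, which encodes an ion channel of the endoplasmic reticulum and had sense reads only. Tmem38b had 330 distinct sequences and 0 antisense reads in every library, which allows up to 0.105 RPM in the shallowest. Sense reads of Tmem38b per kilobase were 263 RPM in the Miwi2 KO and 244 in its WT, a ratio of 1.08-fold, where those of Noct were 1099 and 158 RPM per kb. In the Dnmt3L comparison of 10 dpp Tmem38b was at 0.211-fold for sense reads and Noct at 1.38-fold. In D10Wsu102e, with 87388 distinct sequences on a transcript of 123179 nt, the Miwi2 KO ratio was 1.06-fold for sense and 4.84-fold for antisense reads. Its antisense share was 80.3% in the Miwi2 KO and 47.2% in its WT, against 11.9% and 35.0% for Noct. D10Wsu102e shared 26.5% of the reads of Noct. These differences were between single libraries and were not tested.

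Among genes related to Noct by function, Pde12 alone stood out. Of 10 genes for deadenylases and other CCR4-like enzymes, it was the single one with at least 500 reads on either strand in a compared pair. Pde12, a mitochondrial enzyme of that family, was at 0.112-fold for sense reads in the Dnmt3L KO of 10 dpp over its WT, a log2 ratio of -3.15 past the limit as for 70% of transcripts, and at 0.837-fold in the Miwi2 KO over its WT. Per kilobase, antisense reads of Pde12 were at 118 RPM in the Dnmt3L KO and 168 in its WT at 16.5 dpc, 46.0 in the KO and 579 in its WT at 10 dpp, and 322 in the Miwi2 KO and 441 in its WT, above those of Noct in the 4 libraries of 10 dpp. Noct had 15.6 RPM per kb in the Dnmt3L KO and 53.0 in its WT at 10 dpp, and 148 in the Miwi2 KO and 85.0 in its WT. Of Pde12 reads on both strands, 0.0165% to 0.177% were unique to it. Of 10 circadian clock genes none had 500 reads on either strand in a compared pair, and Clock, the highest of them, reached 6.69 RPM of sense reads in the Miwi2 WT.

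The genes whose sense levels followed those of Noct most closely over the 6 libraries were Gm42860 and Gm29084, with Pearson's r of 0.995 each on the log2(RPM + 0.1) scale, then Gm48786 and Gm47853 with 0.992 each and Gm47457 with 0.991. They were picked from 8334 transcripts, and 2 of the 5 hold many of the same reads, 87.0% of those of Gm42860 and 99.7% of those of Gm29084. The other 3 share no read with Noct. Their sense levels were highest in the Miwi2 KO too, at 3382 RPM against 403 in its WT for Gm48786, 549.8 against 42.3 for Gm47853, and 11027 against 1149.7 for Gm47457. Of their reads on both strands, at most 0.691% in Gm48786, 3.13% in Gm47853 and 0.00654% in Gm47457 were unique to the gene. Their levels thus cannot be assigned to these genes. Antisense levels were most alike in Olfr967, with Pearson's r of 0.999 among 5257 transcripts. At most 0.107% of the reads of Olfr967 were unique to it. With 6 libraries and so many transcripts, these values are a description.

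Genes beside Noct had few such reads. Gm38357, which overlaps the Noct gene outside Noct-202, had 2.52 to 15.5 RPM of sense reads, and Elf2, the neighbour downstream, had at most 0.618 RPM of sense and 0.188 RPM of antisense reads.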

How the data were processed

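The deposited values are raw counts, 1 whole number beside each distinct read sequence, in files with no header. The submitters' processing notes name mm9 alone. Aligner and trimming: not given in the sources used here. Reads of 24 to 32 nt were matched exactly, in both directions, to 55450 transcripts, the longest per gene, of GENCODE vM21 on GRCm38, and counted in full for every gene that holds them. Coordinates are from this matching and not from mm9. A read at 2 places of Noct-202 was divided over them. RPM divides by all reads of a library. Ratios carry 95% exact conditional binomial intervals and shares Clopper-Pearson intervals, and no significance test was made because each group is 1 library. Matching and the size limit were checked on simulated data. Both simulated WT libraries were drawn from the same means, without the offset of the real ones. The planted changes were larger than the Noct ratios past the limit, so the check does not cover changes of their size. Noct, the gene lists and the markers were chosen with earlier results of these data known. The named genes are those that share most reads with Noct, the 5 most like it on each strand, its neighbours within 50 kb and 2 comparison genes. Alternatives were scaling to miRNA reads of 20 to 23 nt, to reads of 24 to 32 nt or by TMM (edgeR 4.0.16 under R 4.3.3), unique reads, distinct sequences, 24 to 28 nt, U-first reads, a count minimum of 100, leaving out the most abundant sequence, and, added after seeing the data, reads divided over genes. Python 3.11.15, numpy 2.4.6, pandas 2.3.3, scipy 1.17.1 and matplotlib 3.10.9 were used.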

Additional observations from a re-analysis of the deposited data

Results flagged for a closer look

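3 pairs of log2 ratios had opposite signs in comparisons of the same kind, and the differences were not tested. Sense reads of Noct were at -0.43 in the Dnmt3L KO over its WT at 16.5 dpc and at 0.47 at 10 dpp. Antisense reads were at 0.30 at 16.5 dpc and at -1.77 at 10 dpp in the Dnmt3L comparison. At 10 dpp antisense reads were at -1.77 in the Dnmt3L comparison and at 0.80 in the Miwi2 comparison. All of these ratios were within the size limit.

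Reads of 18 to 23 nt, below the length range used above, also matched Noct. On the sense strand they were at 277 RPM in the Dnmt3L KO and 379 in its WT at 16.5 dpc, 142 in the KO and 140.5 in its WT at 10 dpp, and 684 in the Miwi2 KO and 153 in its WT. On the antisense strand they were at 390.1 RPM in the Dnmt3L KO and 399 in its WT at 16.5 dpc, 227 in the KO and 674 in its WT at 10 dpp, and 1877 in the Miwi2 KO and 1136 in its WT. All 12 values were above the 0.0635 to 0.105 RPM that 3 counts allow, and no control library without such reads exists in the series. Of the short antisense reads, those within the repeat-flanked stretch had 976 RPM in the Miwi2 KO and 114 in its WT, and 155 in the Dnmt3L KO and 128 in its WT of 10 dpp. Those in the rest of the first exon had 901 RPM in the Miwi2 KO and 1022 in its WT, and 72.1 in the Dnmt3L KO and 547 in its WT of 10 dpp.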

How the results depend on the processing

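Values are log2 ratios and each setting has its own size limit. For the Miwi2 KO over WT, sense reads ranged from 1.54 (distinct sequences) to 3.19 (unique reads), and scaling to miRNA reads gave 2.83, within its limit of 2.92. For the Dnmt3L KO over WT at 10 dpp, sense reads were past the limit with TMM scaling at 3.05 and over distinct sequences at 1.39, and antisense reads turned positive with TMM scaling at 0.82 and over distinct sequences at 0.39. At 16.5 dpc antisense reads turned negative over distinct sequences, at -0.085. For the WT of 10 dpp over 16.5 dpc, sense reads were within the limit when scaled to reads of 24 to 32 nt at -1.37 and turned positive over distinct sequences at 0.042. Antisense reads of that comparison were within the limit when scaled to reads of 24 to 32 nt at -1.26, over unique reads at -4.12 (limit 4.45, from 47 transcripts), over distinct sequences at -0.20, over U-first reads at -1.95 and with a count minimum of 100 at -2.36 (limit 2.45). The causes were not tested. Reads divided over genes kept direction and side of the limit for all 8 ratios.

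Antisense shares over unique reads were 62.1% in the Dnmt3L KO and 57.9% in its WT of 16.5 dpc, 12.1% in the KO and 33.2% in its WT of 10 dpp, and 12.7% in the Miwi2 KO and 24.8% in its WT. Over distinct sequences they were 51.2% in the Dnmt3L KO and 48.1% in its WT of 16.5 dpc, 28.1% in the KO and 43.8% in its WT of 10 dpp, and 34.0% in the Miwi2 KO and 41.7% in its WT. Without the most abundant sequence they were 47.2% in the Dnmt3L KO and 35.5% in its WT of 16.5 dpc, 11.4% in the KO and 36.9% in its WT of 10 dpp, and 13.2% in the Miwi2 KO and 33.4% in its WT. The 10 nt shares with the smaller count in place of the product were 10.8% in the Dnmt3L KO and 11.05% in its WT of 16.5 dpc, 10.9% in the KO and 15.9% in its WT of 10 dpp, and 11.6% in the Miwi2 KO and 14.3% in its WT. Over unique reads they were 47.1% in the Dnmt3L KO and 52.9% in its WT of 16.5 dpc, 28.8% in the KO and 15.8% in its WT of 10 dpp, and 26.0% in the Miwi2 KO and 9.01% in its WT, so that KO and WT changed order in all 3 comparisons. The unique shares rest on 6 pairs of positions at 10 nt in the Dnmt3L WT of 10 dpp and 5 in the Miwi2 WT. Without the pair with the largest product the 10 nt shares were 17.4% in the Dnmt3L KO and 13.4% in its WT of 16.5 dpc, 9.21% in the KO and 19.5% in its WT of 10 dpp, and 18.3% in the Miwi2 KO and 24.4% in its WT. Against all transcripts of other genes the unique share of both strands was 4.32% in place of 4.42% in the Dnmt3L KO and 3.77% in place of 3.85% in its WT at 16.5 dpc.

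No paired analysis was possible because each group is 1 library without a replicate number. No replicate was left out for the same reason. Ratios of unique reads rest on the fewest counts, such as 227 and 358 unique antisense reads of the repeat-flanked stretch in the Dnmt3L KO and WT of 10 dpp.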
